A study of Mus musculus with 6 samples.

Results

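The 10 genes described here encode the MHC class I molecule and the machinery that supplies it with peptides: the heavy chains H2-K1 and H2-D1, the light chain B2m, the transporter subunits Tap1 and Tap2, the tapasin gene Tapbp, the immunoproteasome subunits Psmb8, Psmb9 and Psmb10, and the class I transactivator gene Nlrc5. They were taken from the deposited table by gene symbol, and all 10 were found among its 24628 genes. Class I molecules carry peptides of cytosolic proteins to the cell surface. Proteasomes cut the proteins, TAP moves the peptides into the endoplasmic reticulum, tapasin holds the empty heavy chain with B2m at TAP, and the loaded complex leaves for the surface, where CD8 T cells and the Ly49 receptors of NK cells and ILC1s read it. Interferon-γ raises most of these genes, and NLRC5 acts at the class I, B2m and TAP promoters without binding DNA itself.

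RNA-seq was run on 6 mouse lymphocyte libraries, which the series text describes as ILC1s, innate lymphocytes that make interferon-γ. The 3 libraries of the floxed group are titled Rorafl/fl (both alleles of Rora, the gene of the nuclear receptor RORα, flanked by loxP sites), and the series text calls the comparison group wild type. The 3 libraries of the other group are titled treatment and were taken as the conditional knockout (cKO) by elimination. Their columns add Ncr1, the gene of the receptor NKp46, to Rora, but which cells lost Rora, whether the cKO libraries carry the same floxed alleles, and the age, sex, strain and tissue of the mice are not stated in the labels. No label ties a replicate to an animal, so the p-values describe the spread among these 6 libraries, which may be technical.

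The libraries held 20152146 to 22440170 reads assigned to genes. Rora was at 6.92, 7.41 and 7.91 RPKM in floxed and 5.69, 6.29 and 6.24 RPKM in cKO libraries (limma adjusted p = 0.242), and RPKM over the whole gene does not check a deletion of part of it. All 15 type 1 ILC and NK genes of the marker list were tested, and in limma 2 rose, 2 fell and 11 did not pass, so these markers differed between the groups in both directions. Over all 12731 tested genes 0.652% rose and 0.668% fell in limma. Gzma, a granzyme gene, rose from 108 ± 2.18 to 170 ± 2.84 RPKM (SD, n = 3 each; limma adjusted p = 0.00122), and Eomes, a transcription factor gene of NK cells, rose from 42.4 ± 2.44 to 65.8 ± 4.31 RPKM (limma adjusted p = 0.0106). Ncr1 fell from 372 ± 10.8 to 246 ± 12.5 RPKM (limma adjusted p = 0.00446), and the granzyme gene Gzmb fell from 66.3 ± 3.24 to 49.6 ± 3.86 RPKM (limma adjusted p = 0.0499). The Eomes call was lost without floxed replicate 3 or cKO replicate 1 or 3 (adjusted p up to 0.0585), and the Gzmb call without any 1 of the 6 libraries, with the other pseudocounts, no filter, median centring or quantile normalization (limma adjusted p = 0.0501 to 0.168). Of 10 B cell markers 7 stayed under 1 RPKM in every library, none of the 10 was at 0 throughout, and the summed list was at 14.6 to 16.02 RPKM in floxed and 8.42 to 9.48 RPKM in cKO libraries. Fewer cells of a type and less RNA per cell cannot be told apart in such bulk libraries. Over the 10 macrophage markers the sum was 42.1 to 49.6 and 37.7 to 40.4 RPKM, over the 8 dendritic cell markers 57.3 to 66.7 and 65.8 to 72.4 RPKM, and over the 10 T cell markers 86.0 to 87.5 and 80.5 to 88.0 RPKM. Most of the dendritic cell sum was Itgax, at 56.1 ± 4.13 and 65.8 ± 3.49 RPKM (limma adjusted p = 0.206). Of the 3 dendritic cell markers tested, 2 were higher in cKO libraries by their log2 difference. The other, Ccr7, was lower (1.62 ± 0.253 and 1.22 ± 0.156 RPKM, limma adjusted p = 0.518). A further 4 of the 8 stayed under 1 RPKM in every library. Single markers within these sums did differ: the T cell receptor complex gene Cd3e fell from 5.35 ± 0.430 to 2.93 ± 0.142 RPKM (limma adjusted p = 0.0232) and the B cell gene Cd22 from 9.93 ± 0.285 to 6.49 ± 0.649 RPKM (adjusted p = 0.0353). Cd3e lost its call without any 1 of the 6 libraries, Cd22 without any but cKO replicate 3, and both with no filter on low values. Of the 7 T cell markers tested, 3 lay above 0 by their log2 difference and 4 below, at a median of -0.0045. The other CD3 chain genes, named after their values were seen, did not pass in limma. Cd3d was at 12.7 ± 2.03 and 13.0 ± 0.545 RPKM, and Cd3g at 13.0 ± 0.864 and 12.9 ± 0.367 RPKM. Cd8b1, named after its values were seen, was at 1.27 ± 0.220 and 0.265 ± 0.190 RPKM (limma adjusted p = 0.0976; voom adjusted p = 0.0279). The cKO libraries also had less Xist (log2 difference -1.65), more Ddx3y (0.93) and more Fos (1.04), each past limma's threshold. Xist, an RNA of female cells, was at 31.9 ± 3.16 RPKM in floxed and 9.43 ± 0.394 RPKM in cKO libraries. The Y chromosome gene Ddx3y was at 10.4 ± 0.498 and 20.8 ± 0.438 RPKM. Both genes had reads in every library and their groups lay apart, so the mix of female and male cells may differ along with genotype. The part of these differences in the class I values was not tested.

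H2-K1 and H2-D1 are close paralogs, so their sequences are shown first: they bear on which reads can be told apart. The coding parts of exon 2 and exon 3, which encode the peptide-binding α1 and α2 domains, were 91.1% and 88.0% identical between the 2 genes, and that of exon 4, which encodes the α3 domain, was 96.0% identical, with 11 differing bases of 276. A stretch of 120 bases of exon 2 (chr17:33999884-34000003, minus strand, for H2-K1 and chr17:35263379-35263498, plus strand, for H2-D1, mm10) differs at 12 positions, written in capitals.
H2-K1 exon 2: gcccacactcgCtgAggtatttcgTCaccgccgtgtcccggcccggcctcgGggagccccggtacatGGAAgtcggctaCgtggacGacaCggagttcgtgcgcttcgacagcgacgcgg
H2-D1 exon 2: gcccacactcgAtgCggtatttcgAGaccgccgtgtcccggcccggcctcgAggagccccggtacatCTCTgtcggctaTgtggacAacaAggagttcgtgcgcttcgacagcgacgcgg
A stretch of the same length in exon 4 (chr17:33997441-33997560 and chr17:35265784-35265903) differs at 7 positions, all within its first part, and is then identical to its end.
H2-K1 exon 4: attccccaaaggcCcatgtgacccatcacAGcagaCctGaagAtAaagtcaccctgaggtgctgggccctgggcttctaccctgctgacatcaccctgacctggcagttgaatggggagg
H2-D1 exon 4: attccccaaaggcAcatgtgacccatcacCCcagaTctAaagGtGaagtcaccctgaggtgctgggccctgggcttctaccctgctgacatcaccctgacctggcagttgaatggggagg
Over all GENCODE M21 transcripts of H2-K1, 9.63% of windows of 50 bases occurred letter for letter in a transcript of another gene, and 0.957% of windows of 100 bases did. For H2-D1 the shares were 12.8% and 3.59%. The other 8 genes shared at most 2.87% of 50-base windows, the share of Tapbp, and B2m, Psmb9, Psmb10 and Nlrc5 shared 0%. Read length and the handling of reads with several matches are not stated in the labels, so levels of single heavy chain genes are uncertain to that extent.

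The order of levels was set by the class I molecule itself. H2-K1 (chromosome 17, 33996017 to 34000333, minus strand) was at 2236 to 2613 RPKM and ranked between 7 and 9 among all genes of a library. H2-D1 (chromosome 17, 35262730 to 35267499, plus strand) followed at 1140.3 to 1263 RPKM and B2m (chromosome 2, 122147686 to 122153083, plus strand) at 571 to 647 RPKM. The genes of peptide supply lay far below: Psmb8 at 60.9 to 75.6, Tapbp at 47.6 to 53.1, Tap2 at 37.3 to 43.1, Nlrc5 at 38.3 to 43.7, Psmb10 at 34.5 to 38.6, Tap1 at 24.6 to 28.9 and Psmb9 at 11.7 to 14.2 RPKM. Neighbours in this order did not overlap over the 6 libraries, except that Tap2 and Nlrc5 overlapped, with Tap2 the higher in 4 of 6 libraries, and Nlrc5 and Psmb10 overlapped.

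RPKM divides by the length of all annotated exons, and this length exceeds the principal GENCODE transcript unequally, from 1.0 times for B2m to 2.71 times for Psmb9. Rescaled to the principal transcript, the first 5 genes kept their places, Tap1 came to 50.2, Psmb10 to 47.7, Nlrc5 to 45.2, Tap2 to 44.5 and Psmb9 to 35.4 on the RPKM scale. The order of Tap1, Tap2, Nlrc5 and Psmb10 therefore changed with the length used, and Psmb9 was lowest either way.

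**Figure D1:**
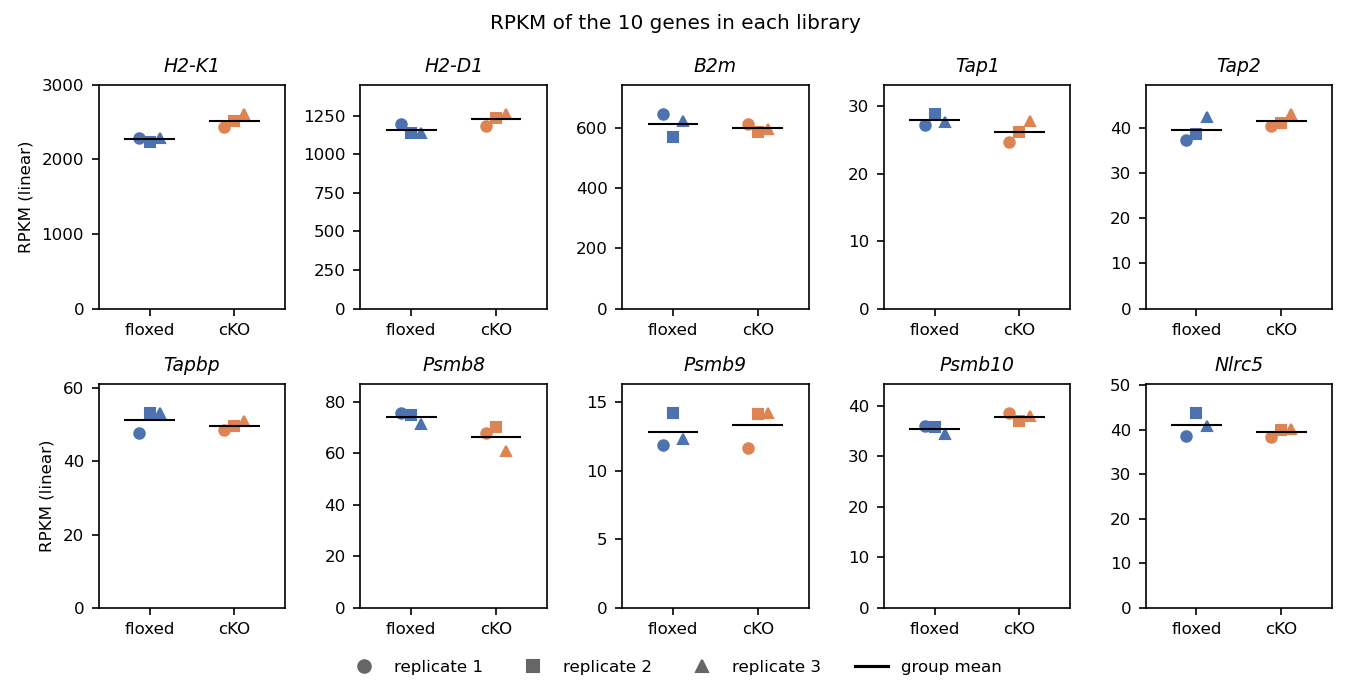
RPKM on a linear axis from 0 for each of the 10 genes in the 3 floxed (blue) and 3 cKO (orange) libraries, with 1 marker shape per replicate and a line at each group mean. The groups lie apart for H2-K1, Psmb8 and Psmb10 and overlap for the other 7 genes.

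The comparison asked whether ILC1s from cKO and floxed mice differ in RNA of the class I pathway. None of the 10 genes passed the test of the difference: 0 rose and 0 fell in limma at a Benjamini-Hochberg adjusted p under 0.05, where 1.32% of the 12731 tested genes passed, 0.652% as higher and 0.668% as lower. At an unadjusted p under 0.05, 1 gene, H2-K1, lay above and 1, Psmb8, below, where 14.1% of all tested genes had such a p. With voom on recovered reads H2-K1 passed as higher, 1 of 10, and none as lower, where 4.19% of all tested genes passed, 1.78% as higher and 2.41% as lower. Groups that did not overlap occurred in 3 of the 10 genes, 2 with cKO above and 1 with cKO below, beside 20.3% of all tested genes (7.61% above and 12.7% below). The median log2 difference (cKO minus floxed, of log2(RPKM + 1)) was 0.01 over the 10 genes and -0.03 over all tested genes, with 5 of the 10 above 0 beside 42.7% of all tested genes. All 10 differences lay between -0.16 and 0.15, and their median absolute size was 0.08, beside 0.11 over all tested genes. Among the 95% confidence intervals of the 10 genes the lowest limit was -0.31 (Psmb8) and the highest 0.29 (Psmb9). Each interval is for 1 gene in this fit, without adjustment over the 10, and describes the spread among these 6 libraries.

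**Figure D2:**
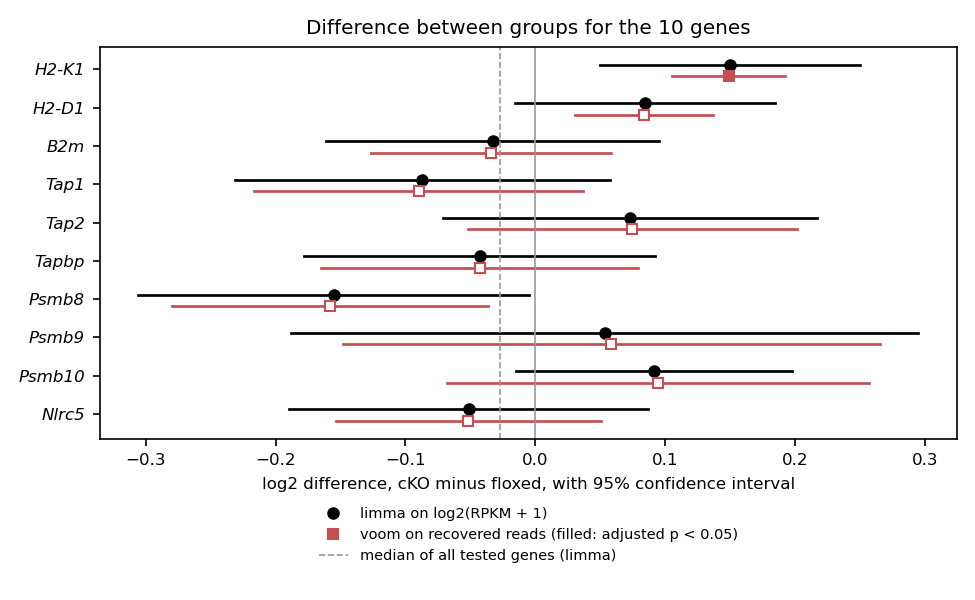
Log2 difference (cKO minus floxed) of each gene with its 95% confidence interval, from limma on log2(RPKM + 1) (black circles) and from voom on recovered reads (red squares, filled where the adjusted p is under 0.05). Only the voom value of H2-K1 is filled, and the dashed line marks the median of all tested genes, -0.03.

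The heavy chains came first in reads, with at least 59297 per library. H2-K1, which encodes a classical class I heavy chain that presents peptide and binds inhibitory Ly49 receptors, was at 2291, 2236 and 2288 RPKM in floxed and 2434, 2517 and 2613 RPKM in cKO libraries. Every cKO library lay above every floxed library, and the cKO mean was 111% of the floxed mean. On the log2 scale H2-K1 differed by 0.15 (SE 0.04, interval 0.05 to 0.25), which did not pass in limma (adjusted p = 0.189). With voom the difference of 0.15 had an adjusted p = 3.58e-05, and after quantile normalization in limma it was 0.04 with an adjusted p = 0.731. These adjusted p-values were the ends of their range over 14 alternatives, while the difference ran from 0.04 to 0.19. H2-D1, the second classical heavy chain gene of this locus, was at 1194, 1141 and 1140.3 RPKM in floxed and 1186, 1235 and 1263 RPKM in cKO libraries. The groups overlapped, as cKO replicate 1 lay below floxed replicate 1, and the log2 difference was 0.08 (SE 0.04, interval -0.02 to 0.18, limma adjusted p = 0.437).

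B2m, the invariant light chain without which class I heavy chains do not reach the surface, was at 647, 571 and 622 RPKM in floxed and 613, 588 and 596 RPKM in cKO libraries. The cKO values lay within the floxed range, and the log2 difference was -0.03 (SE 0.05, interval -0.16 to 0.10, limma adjusted p = 0.843). Per library, the ratio of H2-K1 to B2m in RPKM was 3.54, 3.92 and 3.68 in floxed and 3.97, 4.28 and 4.39 in cKO libraries, so the ratios lay apart. The ratio of H2-K1 to H2-D1 was 1.92, 1.96 and 2.01 in floxed and 2.05, 2.04 and 2.07 in cKO libraries and lay apart as well. The ratio of H2-D1 to B2m was 1.84, 2.00 and 1.83 in floxed and 1.94, 2.10 and 2.12 in cKO libraries. For that ratio the groups overlapped. These ratios are descriptions, without a test, and were added after the values of the genes were known.

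The promoters of these 3 genes are shown because the heavy chain genes and B2m are the classical targets of NF-κB, interferon regulatory factors and NLRC5 in this pathway. Each window spans a start site in RefSeq on GRCm38.p6, with most of it before the start, and capitals mark matches on either strand to the κB letters GGGNNTTCC and the interferon response letters GAANNGAAA, or to a longer form of each: the κB letters with 1 more N in the middle, and GAAA, NN and GAAA in a row.
H2-K1 promoter (chr17:34000298-34000597, minus strand): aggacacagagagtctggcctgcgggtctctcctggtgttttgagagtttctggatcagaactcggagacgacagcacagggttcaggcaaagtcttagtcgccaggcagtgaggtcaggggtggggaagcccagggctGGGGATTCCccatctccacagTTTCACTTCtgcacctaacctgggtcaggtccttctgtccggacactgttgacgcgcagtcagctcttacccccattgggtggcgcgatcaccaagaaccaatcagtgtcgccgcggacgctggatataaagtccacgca
H2-D1 promoter (chr17:35262844-35263143, plus strand): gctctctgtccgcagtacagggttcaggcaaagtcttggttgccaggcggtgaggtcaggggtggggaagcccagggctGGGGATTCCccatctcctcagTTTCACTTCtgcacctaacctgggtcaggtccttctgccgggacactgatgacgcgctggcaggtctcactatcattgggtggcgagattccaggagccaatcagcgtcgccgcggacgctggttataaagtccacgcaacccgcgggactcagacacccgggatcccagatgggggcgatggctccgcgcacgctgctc
B2m promoter (chr2:122147437-122147736, plus strand): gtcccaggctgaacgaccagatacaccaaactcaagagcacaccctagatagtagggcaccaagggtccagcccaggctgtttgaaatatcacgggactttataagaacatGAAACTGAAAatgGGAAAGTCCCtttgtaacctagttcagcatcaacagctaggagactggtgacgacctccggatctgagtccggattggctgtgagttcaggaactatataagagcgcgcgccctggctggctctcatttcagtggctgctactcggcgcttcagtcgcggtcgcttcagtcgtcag
In H2-K1 and H2-D1 the shorter κB form comes first and the shorter interferon form follows, read on the opposite strand. In B2m the longer interferon form comes first and the longer κB form follows, read on the opposite strand, and no match overlaps another. Over all 32851 promoter windows of the table, 5.82% held the shorter and 5.56% the longer κB form, and 7.52% the shorter and 3.44% the longer interferon form. The letters TGACG, part of the box bound by CREB and ATF factors, occurred in all 3 windows and in 20.8% of all windows, and CCAAT in all 3 and in 37.4%. The table held windows for 8 of the 10 genes, without Tap2 and Nlrc5, and in the other 5 (Tap1, Tapbp, Psmb8, Psmb9 and Psmb10) none of the κB and interferon forms occurred in the window; those of Tap1 and Psmb9 cover largely the same bases. A match is a string of letters in the reference genome and was not tested as a binding site.

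The peptide transport and loading genes of the set, Tap1, Tap2 and Tapbp, overlapped between the groups. Tap1, which with Tap2 forms the pump for peptides, was at 27.2, 28.9 and 27.6 RPKM in floxed and 24.6, 26.2 and 27.9 RPKM in cKO libraries (log2 difference -0.09, SE 0.06, limma adjusted p = 0.593). Tap2 was at 37.3, 38.7 and 42.3 RPKM in floxed and 40.4, 41.0 and 43.1 RPKM in cKO libraries (0.07, SE 0.06, adjusted p = 0.660). Although both genes overlapped between groups, the ratio of Tap1 to Tap2 was 0.728, 0.746 and 0.653 in floxed and 0.609, 0.639 and 0.647 in cKO libraries, with every cKO value below every floxed value. That ratio is given without a test. Tapbp, which encodes tapasin, was at 47.6, 53.1 and 53.1 RPKM in floxed and 48.6, 49.5 and 50.9 RPKM in cKO libraries (-0.04, SE 0.06, adjusted p = 0.803), and the cKO values lay inside the floxed range.

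The 3 immunoproteasome subunits, which replace constitutive catalytic subunits and change how proteins are cut, lay on both sides of 0. Psmb8, which takes the place of Psmb5, was at 75.6, 74.8 and 71.2 RPKM in floxed and 67.8, 70.3 and 60.9 RPKM in cKO libraries. Every cKO value lay below every floxed value, the cKO mean was 89.8% of the floxed mean, and the log2 difference was -0.16 (SE 0.06, interval -0.31 to -0.0051, limma adjusted p = 0.337), the lowest of the 10. Psmb10, which takes the place of Psmb7, was at 36.1, 35.9 and 34.5 RPKM in floxed and 38.6, 37.1 and 38.0 RPKM in cKO libraries. Here every cKO value lay above every floxed value, with a log2 difference of 0.09 (SE 0.04, interval -0.02 to 0.20, adjusted p = 0.428). Psmb9, which takes the place of Psmb6, was at 11.9, 14.2 and 12.4 RPKM in floxed and 11.7, 14.1 and 14.2 RPKM in cKO libraries, with groups that overlapped (0.05, SE 0.10, adjusted p = 0.868).

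The ratio of each immunoproteasome subunit to the constitutive one it replaces did not separate the groups. Psmb8 to Psmb5 was 3.71 ± 0.798 (SD, n = 3) in floxed and 3.78 ± 0.428 (n = 3) in cKO libraries, Psmb10 to Psmb7 was 3.27 ± 0.549 and 3.37 ± 0.261, and Psmb9 to Psmb6 was 0.808 ± 0.0653 and 0.747 ± 0.0505, all in RPKM, with overlapping libraries in each case. In both groups Psmb8 and Psmb10 were thus above their counterparts and Psmb9 below its own on the scale of the deposited lengths, while the Psmb9 length is 2.71 times that of its principal transcript. The lengths of Psmb5, Psmb6 and Psmb7 were not set against a principal transcript, so the size of each ratio depends on the deposited lengths. In reads, Psmb10 had 1233 to 1477 per library and Psmb7 642 to 932. Psmb9 had 944 to 1148 reads and Psmb6 606 to 813, so the order of this pair in reads was the reverse of that in RPKM. Nlrc5 (chromosome 8, 94434356 to 94527272, plus strand) was at 38.6, 43.7 and 40.8 RPKM in floxed and 38.3, 40.0 and 40.2 RPKM in cKO libraries. Its groups overlapped, and the log2 difference was -0.05 (SE 0.06, interval -0.19 to 0.09, adjusted p = 0.763).

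Psmb9, Tap1, Psmb8 and Tap2 stand side by side on chromosome 17, in the order Psmb9 (34181988 to 34187764, minus strand), Tap1 (34187553 to 34197225), Psmb8 (34197721 to 34201454) and Tap2 (34203527 to 34216321), the last 3 on the plus strand. Tapbp (33915899 to 33929288, plus strand) lies on the same chromosome and Psmb10 (105935735 to 105938444, minus strand) on chromosome 8. Psmb9 and Tap1 point away from each other, and 212 exon bases belong to both, 5.79% of the Psmb9 and 3.87% of the Tap1 exon bases. Tap2 shares 14.1% and 4.36% of its exon bases with genes on the opposite strand, and Tapbp shares 20.2% with one on the opposite and 1.85% with one on the same strand. Psmb8 shares 6.80% and Nlrc5 0.918% of their exon bases with a gene on the opposite strand. The strand setting of the counting is not given, so reads in these bases may not be told apart.

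Within a group, the libraries did not rank alike for all genes. Among the cKO libraries replicate 3 was highest for 7 of the 10 genes and replicate 1 lowest for 7, while among the floxed libraries replicate 1 was highest for 5 and lowest for 5. The coefficient of variation within a group ran from 1.35% (H2-K1, floxed) to 10.8% (Psmb9, cKO). Counting error at the lowest read number was 0.292% for H2-K1, 1.01% for B2m and 3.25% for Psmb9, the gene with the fewest reads (944 to 1148). The spread within each group exceeded it for these 3 genes. For Psmb10 the spread, 2.45% in floxed and 2.05% in cKO libraries, was below its counting error of 2.85%.

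Beyond the classical chains, 11 of the 13 tested genes of other class I and class I-like molecules lay above 0 and 2 below. Over all tested genes 42.7% lay above 0. The 13 genes had a median log2 difference of 0.12 beside -0.03 over all tested genes. None of them passed in limma: 0 rose and 0 fell, while 4, all above, had an unadjusted p under 0.05, and 1 was called higher by voom. Over all 12731 tested genes the shares were 14.1% at an unadjusted p under 0.05 (706 genes above and 1095 below), 1.78% called higher and 2.41% called lower by voom, and 1.32% called by limma, and the counts of the lists that follow stand beside the same shares. H2-Q6, a Qa-2 heavy chain gene, was at 966, 1008 and 959 RPKM in floxed and 1085, 1081 and 1089 RPKM in cKO libraries, the groups lay apart, and the log2 difference was 0.15 (SE 0.04, limma adjusted p = 0.144; voom adjusted p = 0.000452). H2-Q7, a further Qa-2 gene, was at 251, 240.2 and 246 RPKM in floxed and 263, 256 and 275 RPKM in cKO libraries (0.11, SE 0.04, limma adjusted p = 0.329), again with groups apart. The others with an unadjusted p under 0.05, named here after their values were seen, were H2-K2 (0.20, SE 0.08, limma adjusted p = 0.302) and Cd1d1, which encodes a lipid-presenting molecule (0.25, SE 0.08, adjusted p = 0.252). The Qa-2 genes H2-Q6 and H2-Q7 share 32.0% and 26.4% of their 50-base windows with other genes, so their single values are less certain than those of H2-K1.

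Summing the reads of the paralogs avoids part of this uncertainty, since a read moved from one gene of the sum to another leaves it as it is. Reads of 16 H2-K, H2-D, H2-Q, H2-T and H2-M genes came to 13338, 13103 and 13139 RPM (reads scaled to library size, not to gene length) in floxed and 14069, 14382 and 14764 RPM in cKO libraries. All 3 cKO sums lay above all 3 floxed sums, with a mean of 13193 ± 126 (SD, n = 3) against 14405 ± 348 (n = 3), or 109% of the floxed mean. H2-K1 and H2-D1 alone gave 8775 to 9053 and 9406 to 10073 RPM, and the 6 H2-Q genes 3544 to 3655 and 3922 to 4001 RPM. Of the 13 tested genes with these names, H2-K1 and H2-D1 included, 11 lay above 0 and 2 below, beside 42.7% of all tested genes above 0. Apart from H2-K1 and H2-D1, these genes were already counted among the other class I genes, so this count is not a separate result. In 5 (H2-K1, H2-K2, H2-Q4, H2-Q6 and H2-Q7) all cKO values lay above all floxed values, beside 7.61% of all tested genes. The sums carry no test, because the genes were chosen with their results known.

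**Figure D3:**
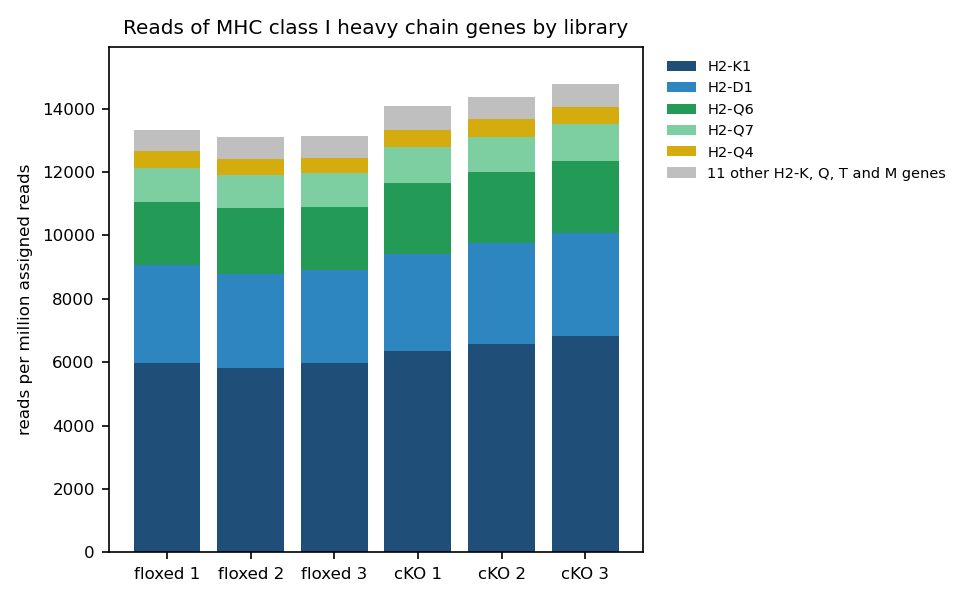
RPM of 16 MHC class I heavy chain genes, stacked by gene for each library. The cKO bars reach 14069 to 14764 and the floxed bars 13103 to 13338, with H2-K1 and H2-D1 as the lower part of each bar.

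Among 10 further peptide loading and trimming genes 0 rose and 0 fell in limma, while 1 on each side had an unadjusted p under 0.05 and voom called 1 each way, and their median log2 difference was 0.0091. Calr, the calreticulin gene, whose product chaperones new class I molecules, was at 360.1, 365 and 376 RPKM in floxed and 375, 378 and 401 RPKM in cKO libraries (0.07, SE 0.04, limma adjusted p = 0.547). Hspa5, which encodes the chaperone BiP, was at 217, 209 and 213 RPKM in floxed and 237, 236 and 247 RPKM in cKO libraries, with groups apart (0.17, SE 0.04, limma adjusted p = 0.108; voom adjusted p = 0.00193). Pdia3, chosen after its values were seen, encodes ERp57, the oxidoreductase bound to tapasin. It was at 156, 156 and 155 RPKM in floxed and 141, 133 and 138 RPKM in cKO libraries, with groups apart in the other direction (-0.18, SE 0.04, limma adjusted p = 0.0976; voom adjusted p = 0.00855).

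Of 14 constitutive core subunits of the proteasome, 0 rose and 0 fell in limma, while 1, below, had an unadjusted p under 0.05 and voom called 0. The median log2 difference was -0.09, and 3 lay above and 11 below 0. The gene below was Psma1, an α subunit gene named after its values were seen (-0.34, SE 0.14, limma adjusted p = 0.339). The α subunit genes Psma4 (75.8 ± 3.27 and 74.7 ± 4.75 RPKM, SD, n = 3 each) and Psma2 (72.9 ± 2.40 and 72.8 ± 8.23 RPKM) overlapped between the groups. Among 9 proteasome activator and assembly genes 0 rose and 0 fell, while 1 on each side had an unadjusted p under 0.05 and voom called 1 higher, at a median of -0.04. Psme1, which encodes the α subunit of the interferon-induced activator PA28, was at 511, 485 and 512 RPKM in floxed and 539, 527 and 581 RPKM in cKO libraries (0.13, SE 0.05, limma adjusted p = 0.326; voom adjusted p = 0.0476). The gene below in that list, Psmg2, encodes an assembly chaperone and was named after its values were seen (-0.47, SE 0.13, limma adjusted p = 0.191). Psme2, the gene of the β subunit of PA28, was at 95.8 ± 7.35 and 90.8 ± 7.62 RPKM (-0.08, SE 0.08, adjusted p = 0.735).

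Of 13 genes of factors that act at class I promoters, with the RFX subunits that NLRC5 needs among them, 0 rose and 0 fell in limma, while 3 (1 above, 2 below) had an unadjusted p under 0.05 and voom called 1 each way. Irf1, an interferon-induced activator of class I and immunoproteasome genes, was at 66.2, 64.6 and 63.6 RPKM in floxed and 74.0, 75.0 and 74.1 RPKM in cKO libraries, with groups apart (0.20, SE 0.04, limma adjusted p = 0.0782; voom adjusted p = 0.0134). Nfya, a subunit of the CCAAT-binding factor NF-Y and named after its values were seen, lay below (-0.24, SE 0.07, limma adjusted p = 0.195).

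In interferon-γ receptor signalling, a list that also holds Irf1, limma called 1 of 8 tested genes higher and 0 lower, at a median of 0.05. Voom called Jak1 and Irf1 higher and 2 genes lower, Ifngr1 among them, and Ifng, the gene of interferon-γ itself and chosen after its values were seen, differed by 0.19 (SE 0.06, limma adjusted p = 0.200). Jak1, a kinase bound to the interferon-γ receptor, rose from 177 ± 1.96 to 216 ± 2.98 RPKM (SD, n = 3 each; log2 difference 0.28, SE 0.03, limma adjusted p = 0.0164), a call lost when any library but floxed replicate 2 was left out (adjusted p up to 0.0892). Ifngr1, which encodes the ligand-binding chain of that receptor, was at 192, 204 and 187 RPKM in floxed and 159, 161 and 165 RPKM in cKO libraries, with groups apart (-0.26, SE 0.05, limma adjusted p = 0.0551; voom adjusted p = 0.000232).

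**Figure D4:**
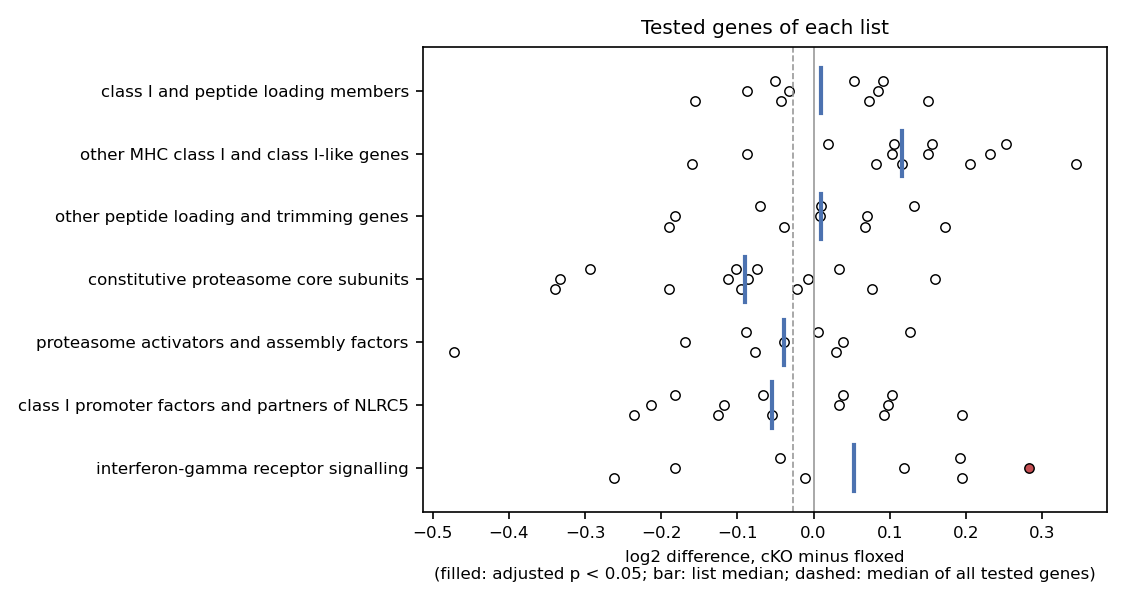
Log2 difference (cKO minus floxed) of every tested gene in the 10-gene set and in 6 lists of related genes, 1 circle per gene, with a blue bar at each list median and a dashed line at the median of all tested genes, -0.03. Jak1 is the only filled circle (adjusted p under 0.05), and the other class I genes have the highest median, 0.12.

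MHC class II genes, which present peptides of ingested proteins and mark B cells, dendritic cells and macrophages, differed between the same libraries. Of 8 tested class II presentation genes 0 rose, 2 fell and 6 did not pass. The log2 difference lay below 0 for 7 of them and above 0 for 1, H2-Ob, named after its values were seen. H2-Ob was at 1.56 ± 0.226 RPKM in floxed and 2.16 ± 0.335 RPKM in cKO libraries, with groups apart (limma adjusted p = 0.393). H2-Ab1, the class II β chain gene, fell from 41.6 ± 3.06 to 26.8 ± 1.14 RPKM (log2 difference -0.62, limma adjusted p = 0.0110), and Cd74, the invariant chain gene, fell from 54.1 ± 3.93 to 32.0 ± 4.61 RPKM (-0.75, adjusted p = 0.0305), n = 3 in each group. The calls depended on the libraries used: H2-Ab1 lost it without floxed replicate 3 or cKO replicate 2 or 3, and Cd74 without any library but cKO replicate 3 and with no filter on low values. The summed level of the 9 class II genes was 127.6 to 138 RPKM in floxed and 79.7 to 89.2 RPKM in cKO libraries, while the 10 class I pathway genes summed to 4238 to 4406 and 4503 to 4747 RPKM.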

How the data were processed

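The authors deposited 1 table of RPKM values (reads scaled to gene length and library size), which also lists each gene's exons and length. The submitters' processing notes name mm10, edgeR 3.12.1, Subread 1.5.1, featureCounts and STAR 2.5.3a, without saying what each did or which annotation was used. Per the labels' protocols, mRNA libraries came from a stranded kit.

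RPKM times length gave whole reads for 100% of values (within 0.001 reads), 20152146 to 22440170 per library. The 12731 genes that reached 1 RPKM in 3 or more of 6 libraries were tested with limma 3.58.1 (R 4.3.3; lmFit and eBayes with trend) on log2(RPKM + 1), two-sided, with Benjamini-Hochberg adjustment over all of them. A fold on this scale understates the change of low genes. Alternatives were pseudocounts 0.1 and 0.5, no filter, a filter at 5 RPKM, median centring, quantile normalization, voom on recovered reads, a replicate block and leaving out each library. Same-numbered libraries of the 2 groups were compared for pairing.

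All 10 genes are named, with up to 4 called genes per list and, in pathway lists, the 2 others highest in RPKM. The values of 1 gene that this rule names are not reported here. The script was tested on simulated data. The genes and lists were chosen with earlier results of these data known. GENCODE M21 (GRCm38, the mm10 assembly) gave transcripts. Protein identity, planned for the heavy chains, was replaced by that of coding exons.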

Additional observations from a re-analysis of the deposited data

How the results depend on the processing

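None of the 10 class I pathway genes passed in 13 of the 14 alternatives; with voom on recovered reads H2-K1 did (log2 difference 0.15). B2m and Tapbp changed sign: B2m (0.011 with median centring, and -0.083 to 0.0070 over the libraries left out, the positive value without floxed replicate 1) and Tapbp (0.0012 with median centring). Of the genes of other lists, Psma4 turned to 0.022 and Psma2 to 0.036 with median centring and ranged from -0.069 to 0.021 and from -0.060 to 0.088 over the libraries left out. Median centring moved the median of all tested genes from -0.03 to 0.02 and the share of them above 0 from 42.7% to 54.4%, and placed 7 of the 10 genes above 0.

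Among all tested genes 83 were called higher and 85 lower, against 44 and 36 with no filter, 226 and 307 with voom, 37 and 23 with the replicate block, and 33 to 51 and 27 to 39 with 1 library left out. In the lists, voom called 1 higher in the 10-gene set and in the other class I genes, 1 and 1 in peptide loading and in promoter factors, 1 and 0 in proteasome activators and 2 and 2 in interferon-γ signalling. Median centring called 1 higher in peptide loading, 1 in promoter factors and 2 in interferon-γ signalling, where the replicate block called 0 (Jak1, limma adjusted p = 0.0876), leaving out 1 library 0 to 1, and the 5 RPKM filter 1 lower. The causes were not tested.

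Same-numbered libraries did not vary together (correlations of deviations -0.03, 0.01 and 0.04), so the replicate block rests on a shared number only. Depth limits Psmb9 most, with 944 reads in the lowest library.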
